A study of Mus musculus with 6 samples.

Results

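Collagen hydroxylases and lysyl oxidases are the enzymes that modify the proline and lysine residues of collagen inside the cell and cross-link the secreted chains outside it. The 10 genes described were P4ha1, P4ha2, P4ha3, Plod1, Plod2, P3h1, Crtap, Lox, Loxl1 and Loxl3, chosen by name. All 10 were measured, of 22180 genes in all. Each had 1 probe set annotated to its symbol alone, so the rule of taking the probe set with the highest mean left no choice to make.

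Prolyl and lysyl hydroxylases act in the endoplasmic reticulum on newly made procollagen, and they need iron, oxygen, 2-oxoglutarate and ascorbate. Hydroxyproline holds the collagen triple helix together at body temperature, and hydroxylysine carries sugars and sets the kind of cross-link that forms. The lysyl oxidases are secreted copper enzymes that turn lysine and hydroxylysine side chains into aldehydes, from which the cross-links of collagen and elastin arise. Bone matrix is mostly cross-linked type I collagen, and loss of several of these enzymes gives brittle bone or lax connective tissue.

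The cells were MC3T3-E1, a mouse line of pre-osteoblasts from calvaria. All 6 samples were confluent cultures with 10% serum, driven towards bone-forming cells with ascorbic acid at 50 µg/ml and β-glycerophosphate at 10 mM. They were collected at day 14. Of these, 3 contained 1 µM NU7441, which blocks the catalytic subunit of the kinase DNA-PK, and 3 contained the solvent DMSO, with the numbers 1 to 3 in each group. Ascorbic acid, which the hydroxylases use, was thus present in both groups. Each sample was read on 1 Affymetrix array, and values are log2 signals per probe set. The labels do not state that replicates were separate cultures, so p-values here reflect how much these samples vary, a spread that could be technical.

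Array medians ran from 6.38 to 6.42 and correlations between arrays from 0.989 to 0.993. The mean signal of each of the 10 genes lay above the upper quartile of every array, 8.26 to 8.32. Of 11 osteoblast markers 9 were measured, among them Ibsp, Alpl and Sp7, and all 9 lay above the arrays' medians. Their mean signal was between 10.45 and 11.21 in DMSO and between 10.85 and 11.49 in NU7441, and all 9 had a difference above 0, with a median of 0.52. Of 5 endothelial markers 0 lay above the medians, of 5 macrophage and 5 adipocyte markers 1 each (Cd68 and Plin1), of 5 chondrocyte markers 2 (Col2a1 and Sox9), and of 5 smooth muscle markers 4 (Myh11, Acta2, Tagln and Des). The mean signals of the endothelial, chondrocyte and smooth muscle markers overlapped between the groups. Those of the macrophage markers touched at 5.88 and those of the adipocyte markers at 5.69. Of the 5 adipocyte markers, 3 had a difference above 0 and 2 below it, with a median of 0.075. Fabp4 had the largest difference among them, its mean signal being 5.87 with DMSO against 4.87 with NU7441. Whether the osteoblast markers or Fabp4 move with the 10 genes for a shared reason was not tested. In RNA from whole cultures, fewer cells of a type and less RNA per cell cannot be told apart.

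The comparison of NU7441 with DMSO asks whether blocking the kinase alters the transcripts of these 10 genes in differentiating osteoblasts. Of the 10 genes, 7 had a fitted difference below 0 and 3 above it, where 48.7% of all genes were below 0. The median difference was -0.16 on the log2 scale, against 0.00 over all genes. None of the 10 passed limma's test at an adjusted p under 0.05, and of all genes 0, or 0%, passed. Without adjustment, P4ha2, Plod1 and Lox were the 3 genes with a p under 0.05, all lower with NU7441, where 3.3% of all genes met this mark in the lower direction. In the higher direction 0 of the 10 and 3.49% of all genes met it.

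The 3 NU7441 arrays lay below the 3 DMSO arrays in P4ha2, Plod1 and Lox, a pattern found in 6.64% of all genes. They lay above them in P4ha3 and Crtap, a pattern found in 6.13%. Same-numbered samples deviated together, and with the sample number as a block 4 genes had an unadjusted p under 0.05, all lower: P4ha2, Plod1, Plod2 and Loxl1. Of all genes, 4.66% met that mark in the lower direction and 4.71% in the higher, and limma again called 0 at an adjusted p under 0.05. For all 10 genes a 2-fold change of the signal lay outside the difference's 95% interval, which also held for 99.2% of all genes and so sets these 10 apart in nothing. The lowest bound over the genes was 0.646 of the DMSO level and the highest 1.19 of it.

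**Figure D1:**
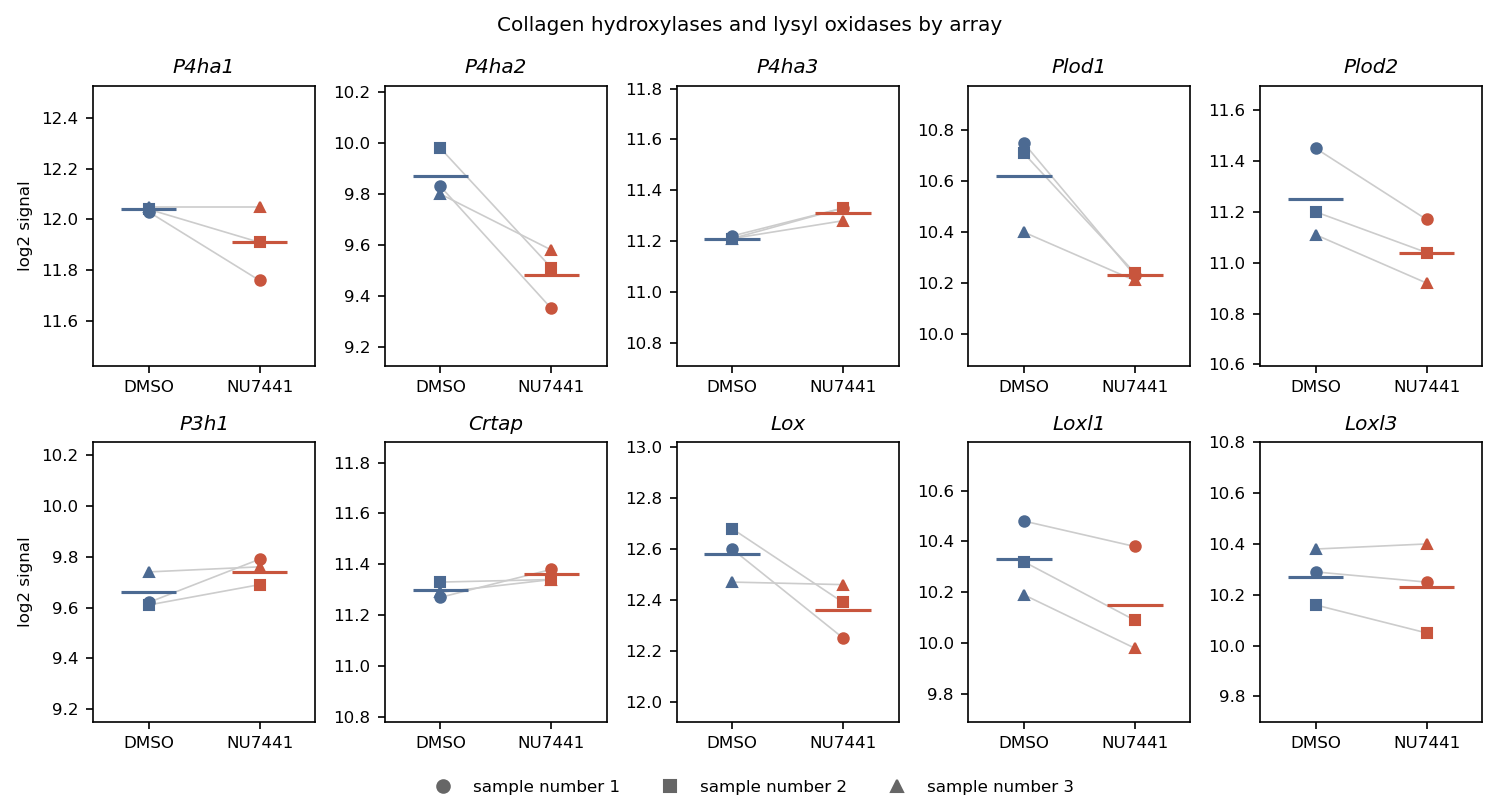
Log2 signal of the 10 genes on each of the 6 arrays, DMSO in blue and NU7441 in red, with the group mean as a bar and grey lines between samples of the same number. All panels span the same height on the log2 scale. The groups do not overlap in P4ha2, Plod1 and Lox, lower with NU7441, or in P4ha3 and Crtap, higher with it. The gap is widest in P4ha2 and Plod1, where the means differ by -0.39 each.

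P4ha1, P4ha2 and P4ha3 encode the alternative catalytic alpha subunits of collagen prolyl 4-hydroxylase, which pairs each with protein disulfide isomerase and makes the hydroxyproline of the triple helix. P4ha2 was at 9.83, 9.98 and 9.80 in DMSO 1 to 3 and at 9.35, 9.51 and 9.58 in NU7441 1 to 3. All 3 NU7441 arrays were lower than all 3 DMSO arrays, the nearest being DMSO 3 and NU7441 3, which differed by -0.22. The group means were 9.87 ± 0.09 and 9.48 ± 0.12 (SD, n = 3 each), which is -0.39 (SE 0.09) on the log2 scale or 23.8% less signal. The adjusted p in limma was 0.613 (unadjusted limma p 0.00265), so P4ha2 did not pass. Over the 16 alternative settings its difference kept its sign and its unadjusted p ran from 0.000302 to 0.00983 and its adjusted p from 0.0595 to 0.912.

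P4ha1 was at 12.03, 12.04 and 12.05 in DMSO and at 11.76, 11.91 and 12.05 in NU7441. The DMSO arrays were nearly equal and the NU7441 arrays were spread out, with NU7441 3 at the DMSO level. The difference was -0.13 (SE 0.09), the adjusted p in limma was 0.814, and the 95% interval ran from -0.33 to 0.07. Without NU7441 1 the difference was -0.06, and without NU7441 3 it was -0.21. P4ha3 was at 11.22, 11.21 and 11.21 in DMSO and at 11.33, 11.33 and 11.28 in NU7441. Every NU7441 array was higher than every DMSO array, by a small step. The difference was 0.10 (SE 0.06), or 7.28% more signal, with an adjusted p in limma of 0.792.

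Because P4ha1 and P4ha2 are known targets of the hypoxia-inducible factor, as are Plod1, Plod2 and Lox, the promoters that RefSeq gives were searched for the core of its binding motif. RefSeq's promoter table (GRCm38.p6) holds 250 bases before and 50 after a transcript start, and it had entries for 6 of the 10 genes, without Plod2, Lox, Loxl1 and Loxl3. The letters searched were ACGTG and GCGTG on both strands, where ACGTG on the other strand reads CACGT and GCGTG reads CACGC. Where matches on both strands overlapped, each was counted. In the 3 prolyl 4-hydroxylase genes, all on the plus strand, the bases of these windows that precede the first base of the gene in RefSeq's annotation are shown to set the isoforms side by side, for P4ha1 at chr10:59323046-59323196, for P4ha2 at chr11:54100674-54100923 and for P4ha3 at chr7:100285270-100285488. The table's start lies 99 bases inside P4ha1 and 31 inside P4ha3, so 151 and 219 bases are shown for them and 250 for P4ha2, and each run ends at the base before the gene. Capitals mark the matches.
P4ha1: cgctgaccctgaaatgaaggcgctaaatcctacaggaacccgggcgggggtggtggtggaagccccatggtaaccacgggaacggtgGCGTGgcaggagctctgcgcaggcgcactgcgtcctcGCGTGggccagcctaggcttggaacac
P4ha2: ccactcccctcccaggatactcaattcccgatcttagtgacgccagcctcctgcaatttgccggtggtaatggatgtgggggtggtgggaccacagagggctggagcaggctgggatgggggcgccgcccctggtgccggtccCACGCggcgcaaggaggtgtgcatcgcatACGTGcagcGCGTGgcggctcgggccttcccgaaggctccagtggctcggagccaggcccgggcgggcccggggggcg
P4ha3: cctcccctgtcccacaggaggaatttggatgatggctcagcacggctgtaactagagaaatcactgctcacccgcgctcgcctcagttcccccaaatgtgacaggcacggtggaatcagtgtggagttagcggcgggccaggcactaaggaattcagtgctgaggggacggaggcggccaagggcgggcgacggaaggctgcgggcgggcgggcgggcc
P4ha1 had 2 matches in these bases and 1 inside the gene, P4ha2 had 3 and 1 inside the gene, and the window of P4ha3 held 0. Of all 32851 promoters of the table, 43.8% held a match in the whole 300 bases and 20.6% held 2 or more. A match is a description of letters and says nothing of binding in these cells.

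Plod1 and Plod2 encode lysyl hydroxylases. The product of Plod1 modifies lysines in the helical part of collagen and that of Plod2 those in the telopeptides, which decides the type of cross-link. Plod1 was at 10.75, 10.71 and 10.40 in DMSO and at 10.23, 10.24 and 10.21 in NU7441. The NU7441 arrays were almost equal and all lay below the lowest DMSO array, DMSO 3. The group means were 10.62 ± 0.19 and 10.23 ± 0.02 (SD, n = 3 each), which is -0.39 (SE 0.10) on the log2 scale or 23.9% less signal. The adjusted p in limma was 0.643 (unadjusted limma p 0.00541), so Plod1 did not pass. Its difference was -0.33 without DMSO 1 and -0.50 without DMSO 3, and its unadjusted p stayed between 0.000352 and 0.0202 over the 16 alternative settings, its adjusted p between 0.0664 and 0.92.

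The 250 bases before the start of Plod1, on the minus strand at chr4:147936777-147937026, are shown as those of the member with the largest difference, with the match in capitals.
Plod1: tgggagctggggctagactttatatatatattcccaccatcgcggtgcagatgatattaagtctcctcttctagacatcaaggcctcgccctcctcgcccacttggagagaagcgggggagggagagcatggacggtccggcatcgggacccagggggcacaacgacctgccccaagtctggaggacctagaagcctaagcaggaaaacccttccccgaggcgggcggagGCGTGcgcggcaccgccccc
Plod1 had 1 match here and 1 inside the gene. Matches were also present in members whose difference was above 0: 3 in Crtap and 2 in each of the 2 windows of P3h1, the second of which lies inside the gene.

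Plod2 was at 11.45, 11.20 and 11.11 in DMSO and at 11.17, 11.04 and 10.92 in NU7441. The groups overlapped, but in both of them sample 1 was highest and sample 3 lowest, and each NU7441 array was below the DMSO array of its number, by -0.28, -0.15 and -0.19. The difference was -0.21, with an SE of 0.11 without pairs and 0.06 with the sample number as a block. The unadjusted limma p was 0.0955 without pairs and 0.0220 with them, and the adjusted p in limma was 0.768 and 0.487, with a range from 0.123 to 0.953 over all settings. Without DMSO 1 the difference was -0.11.

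P3h1 encodes prolyl 3-hydroxylase 1 and Crtap the cartilage-associated protein, which has no catalytic activity of its own and forms a complex with it and cyclophilin B that modifies a specific proline of the type I collagen chain. P3h1 was at 9.62, 9.61 and 9.74 in DMSO and at 9.79, 9.69 and 9.76 in NU7441. The groups overlapped, DMSO 3 lying above NU7441 2. The difference was 0.09 (SE 0.07), with an adjusted p in limma of 0.84. Crtap was at 11.27, 11.33 and 11.29 in DMSO and at 11.38, 11.34 and 11.34 in NU7441. The groups stood apart by only 0.01 between DMSO 2 and the lower NU7441 arrays. The difference was 0.06 (SE 0.06), with an adjusted p in limma of 0.879 and a 95% interval from -0.08 to 0.20. The third partner of the complex, Ppib, is counted below among the other maturation genes.

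**Figure D2:**
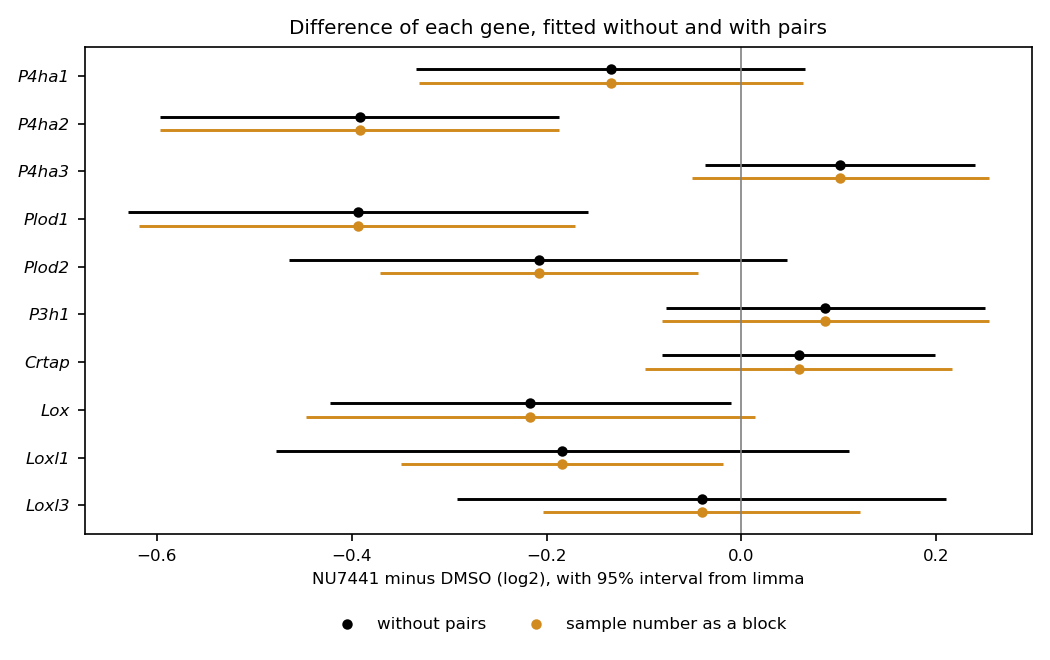
Difference NU7441 minus DMSO of each gene on the log2 scale, as a point with its 95% interval from limma, in black without pairs and in orange with the sample number as a block. Intervals below 0 belong to P4ha2, Plod1 and Lox without pairs and to P4ha2, Plod1, Plod2 and Loxl1 with the block.

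Lox, Loxl1 and Loxl3 encode lysyl oxidases, Lox being the main cross-linking enzyme of fibrillar collagen and Loxl1 being known for its role in elastic fibres. Lox was at 12.60, 12.68 and 12.47 in DMSO and at 12.25, 12.39 and 12.46 in NU7441. The groups did not overlap, but DMSO 3 and NU7441 3 were 0.01 apart. The group means were 12.58 ± 0.11 and 12.36 ± 0.11 (SD, n = 3 each), which is -0.22 (SE 0.09) on the log2 scale or 13.9% less signal. The adjusted p in limma was 0.726. The unadjusted limma p was 0.0416 without pairs and 0.0607 with the sample number as a block, and it was under 0.05 in 11 of the 16 alternative settings.

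Loxl1 was at 10.48, 10.32 and 10.19 in DMSO and at 10.38, 10.09 and 9.98 in NU7441. The groups overlapped, sample 1 being highest and sample 3 lowest in each, as in Plod2. Within the numbers the differences were -0.10, -0.23 and -0.22. The fitted difference was -0.18, with an SE of 0.12 without pairs and 0.06 with the block. The unadjusted limma p was 0.182 and 0.0353, and the adjusted p in limma 0.825 and 0.51, with a range from 0.203 to 0.973 over all settings. The difference ranged from -0.30 without NU7441 1 to -0.10 without NU7441 3. Loxl3 was at 10.29, 10.16 and 10.38 in DMSO and at 10.25, 10.05 and 10.40 in NU7441. The groups overlapped fully, and the difference of -0.04 (SE 0.11, adjusted p in limma 0.956) turned to 0.01 without DMSO 3 and to 0.05 without NU7441 2.

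The genes varied between arrays in distinct ways, which the correlation of their signals over the 6 arrays describes. P4ha2 and Lox had the highest Pearson correlation of the 45 pairs, 0.95, and it was 0.94 once the group means were subtracted. Plod2 and Loxl1 followed with 0.93, and 0.91 after subtraction. P4ha2 and Loxl1, in contrast, had 0.27 and -0.61. P4ha2 and P4ha3 had the lowest value, -0.95, and -0.61 within the groups. P4ha2 and Plod1 were at 0.86 over the arrays and at 0.29 within the groups. These are descriptions over 6 arrays that share their processing, and the values after subtraction rest on fewer degrees of freedom.

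**Figure D3:**
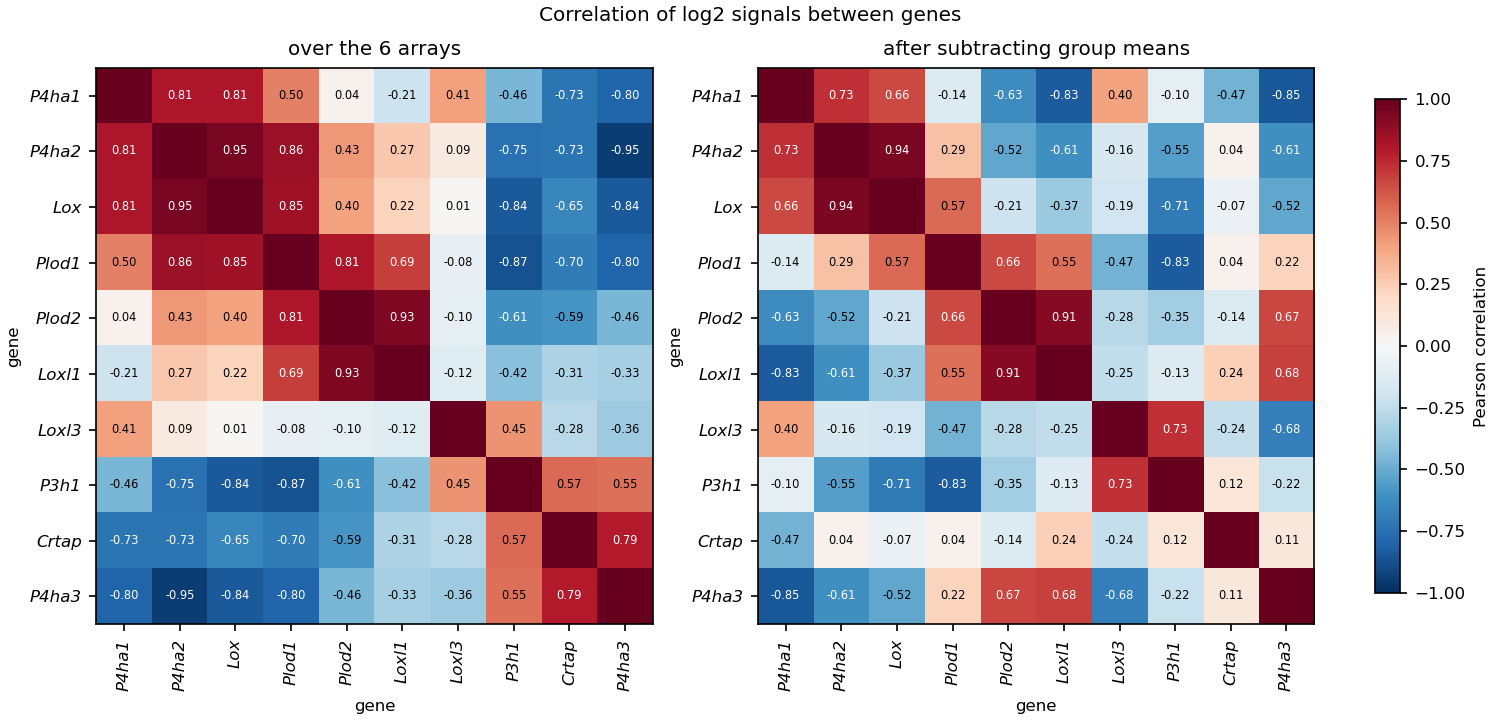
Pearson correlation of log2 signals between each pair of genes over the 6 arrays (left) and after each group's mean was subtracted (right), from blue at -1 to red at 1. P4ha2 with Lox (0.95 and 0.94) and Plod2 with Loxl1 (0.93 and 0.91) are high in both panels.

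By the same measure, the genes outside the family with the highest correlation were Bicdl1, Nkap and Abcc1 for P4ha2 (0.996, 0.989 and 0.989), Gm10532, Il34 and Rnft1 for Plod1 (0.997, 0.993 and 0.989), and Pogz, Ilvbl and Flii for Lox (0.985, 0.979 and 0.978). Above 0.95 were 58 genes with P4ha2, or 0.262% of all genes, 77 with Plod1, or 0.347%, and 33 with Lox, or 0.149%. These genes were picked as the highest of all, over 6 arrays.

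Isoforms of a subfamily were also compared within each array, where a shift of the whole array cancels. The 8 pairs were chosen after the values were seen. The signal of P4ha2 minus that of P4ha3 was -1.39, -1.23 and -1.41 in DMSO and -1.98, -1.82 and -1.70 in NU7441, all NU7441 arrays being lower. The mean changed by -0.49 on the log2 scale (exact permutation test, two-sided p = 0.1, the smallest that 3 against 3 arrays allow, and 0.2 adjusted over the 8 pairs). P4ha1 minus P4ha2 changed by 0.26, P4ha1 minus P4ha3 by -0.24 and Plod1 minus Plod2 by -0.19, each with the same exact p. P3h1 minus Crtap changed by 0.03 (exact p = 0.7), Lox minus Loxl1 by -0.03 (exact p = 0.9), Lox minus Loxl3 by -0.18 (exact p = 0.3) and Loxl1 minus Loxl3 by -0.14 (exact p = 0.5). With this number of arrays no pair could be shown to differ or not to differ.

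Listed genes with no probe set of their own were left out. The 10 genes were set beside the rest of the collagen pathway and beside genes that share their chemistry or their control by oxygen. A list of 36 other collagen maturation genes, of which 32 were measured, held chaperones, procollagen proteinases and secretion factors. It also held hydroxylases and lysyl oxidases that are not among the 10 genes, of which Plod3 and Loxl2 were not measured. In the 32 the difference was below 0 in 17 and above it in 15, and its median was 0.00. None passed, and for 2 the unadjusted limma p was under 0.05. P3h2, another prolyl 3-hydroxylase, had group means of 8.52 with DMSO and 8.20 with NU7441 and differed by -0.32 (SE 0.10). Of its relatives, P3h3 differed by 0.02 (SE 0.08) and P3h4 by 0.11 (SE 0.07). The lysyl oxidase Loxl4 differed by 0.13 (SE 0.36), and P4hb, the protein disulfide isomerase of prolyl 4-hydroxylase, by -0.11 (SE 0.08). Fkbp14, a prolyl isomerase of the endoplasmic reticulum, differed by 0.18 (SE 0.06), and Adamts14, a procollagen N-proteinase, by -0.21 (SE 0.10). Among the substrates, 19 fibrillar and associated collagens, 7 had a difference below 0 and 12 above it, the median was 0.01, and 0 had an unadjusted limma p under 0.05. Col1a1 had means of 13.47 with DMSO and 13.52 with NU7441, near the top of the scale, since no array went above 13.96, and a rise could be hidden there. The smallest unadjusted p of the collagens belonged to Col2a1 at 0.28 (SE 0.14), followed by Col27a1 at 0.18 (SE 0.10) and Col11a2 at 0.32 (SE 0.18).

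Of the 15 measured of 17 listed elastic fibre genes, a list of elastin and other proteins of the fibre, 7 had a difference below 0 and 8 above it. The median was 0.03. Without NU7441 3 that median was -0.02. Fbln2, a fibulin, differed by -0.34 (SE 0.12) and was the only one at an unadjusted p under 0.05, while Ltbp4 and Ltbp2, which bind latent TGF-beta, differed by -0.20 (SE 0.08) and 0.40 (SE 0.18). Other 2-oxoglutarate oxygenases, which use the same cofactors as the hydroxylases, made a list of 42, of which 38 were measured. Hpd (-0.009) was listed with them although it does not use 2-oxoglutarate. P4htm (0.026), which does, was counted with the collagen maturation genes. Of the 38 measured, 24 had a difference below 0 and 14 above it, and the median was -0.01. Egln1, an oxygen sensor that marks the hypoxia-inducible factor for decay, differed by -0.42 (SE 0.08) and was alone at an unadjusted p under 0.05. Egln3, of the same family, differed by -0.69 (SE 0.36) and the histone demethylase Kdm3a by -0.23 (SE 0.13).

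Genes induced by hypoxia, apart from the enzymes and oxygenases above, made a list of 39, of which 32 were measured. Hif1a (-0.163), Epas1 (0.075) and Arnt (-0.01) were listed with them although they encode subunits of the hypoxia-inducible factor itself. Of the 32 measured, 28 had a difference below 0, and the median was -0.20. In limma 12 of the 32 were lower and 1 higher with an unadjusted p under 0.05, and 0 passed. The glucose transporter Slc2a1 differed by -0.44 (SE 0.07), the angiogenic factor Vegfa by -0.40 (SE 0.07) and Ero1a, an oxidase of the endoplasmic reticulum, by -0.64 (SE 0.12). This list was chosen with its direction in these samples known, so it is not independent evidence of that direction. Its median ran from -0.26 without NU7441 3 to -0.16 without NU7441 2. Its part in the differences of P4ha2, Plod1, Plod2 and Lox was not tested.

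The calls in these lists changed with the fit. With the sample number as a block together with an intensity trend and a robust prior, limma called 100 genes, or 0.451% of all genes. Of the 10 genes described it called 0. It called 4 of the 32 measured genes of the hypoxia-induced list, all lower with NU7441. These were Ero1a (adjusted limma p 0.00467), Slc2a1 (0.0160), Vegfa (0.0160) and Ndrg1 (0.0167, a gene named after its value was seen). Of the elastic fibre genes it called Fbln2 as lower (adjusted limma p 0.0172) and Ltbp2 as higher (0.0316), and of the oxygenases Egln1 (0.0264) and Egln3 (0.0268), both lower. Of the other collagen maturation genes and of the collagens it called 0. Of the 9 measured osteoblast markers it called 4, all higher, and of the 5 adipocyte markers 1, lower. Of the chondrocyte, smooth muscle, macrophage and endothelial markers it called 0. With the block alone, limma called 0 genes of any list.

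**Figure D4:**
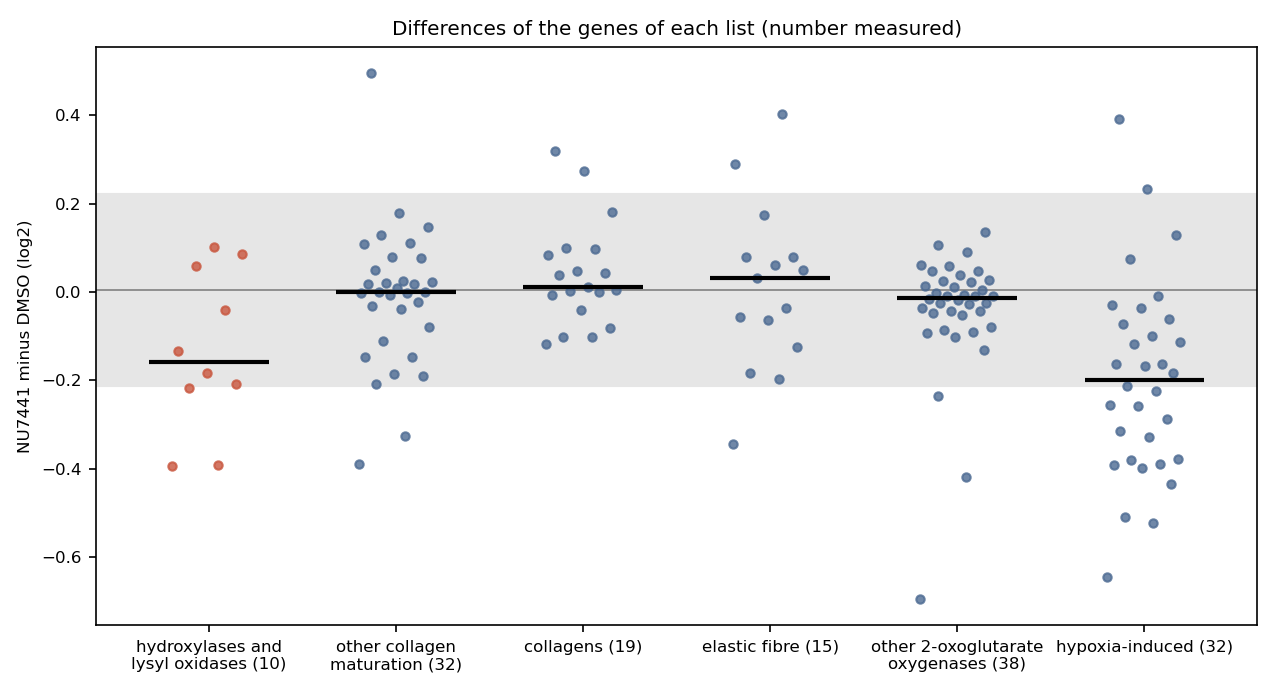
Difference NU7441 minus DMSO on the log2 scale for each gene of the family (red) and of 5 comparison lists (blue), with the median of each as a black bar. The grey band holds the middle of all genes, from the percentile 5 at -0.21 to the percentile 95 at 0.22. The medians of the family (-0.16) and of the hypoxia-induced list (-0.20) are the lowest. The hypoxia-induced list was chosen with its direction in these samples known.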

How the data were processed

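The authors deposited 1 log2 value per probe set and array, the scale being read from the values' range; how they were corrected, summarised and normalized is not given in the sources used here. Total RNA of whole cells was labelled with biotin, per the labels. The number of arrays limits the precision. Of 41345 probe sets, 23521 had 1 gene symbol, 1814 several and 16010 none here; the brightest single-symbol probe set per gene left 22180 genes. No filter was applied.

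Groups came from the treatment label and numbers from the titles. The test was limma's (version 3.58.1, R 4.3.3) with group as the only term, adjusted by Benjamini-Hochberg over all genes at a threshold of 0.05. Only this fit was tested on simulated data, and the fits with a block or an intensity trend were not. The simulated arrays were drawn independently, with no link between same-numbered samples, so the test does not cover such a link. The deviations of same-numbered samples from their group means correlated at 0.149, 0.169 and 0.339, each above 0.1. Those of differently numbered samples correlated from -0.246 to 0.094. The main test did not use the numbers as pairs, and only the fits with a block did. No label states that they are pairs. The block was an alternative, beside an intensity trend with robust prior, scaling by quantiles or medians, dropping dim genes, another choice of probe set, array weights, and each array left out.

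The members, lists and alternatives were chosen with earlier results of these data known. The text names the members, up to 3 genes with the smallest p in each list, 3 genes most alike for each of 3 members, and markers. Figures used matplotlib 3.10.9.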

Additional observations from a re-analysis of the deposited data

How the results depend on the processing

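With 3 arrays a group, the precision is limited by their number, and signal over background was not analysed here. In every one of the 16 alternatives 0 of the 10 genes passed at an adjusted p under 0.05. Limma called 0 genes in all of them but the replicate block with intensity trend and robust prior, where it called 100 of 22180. In that fit 7 of the 10 genes had an unadjusted limma p under 0.05, 6 lower and 1, P4ha3, higher with NU7441. Of all 22180 genes, 1478 met this mark in the lower direction and 1005 in the higher. P4ha2 was nearest to passing at an adjusted limma p of 0.0595 and Plod1 next at 0.0664. With the replicate block alone the count at an unadjusted p under 0.05 was 4 and in the other alternatives between 2 and 4. The number of genes below 0 was 7, or 6 without DMSO 3 or without NU7441 2, and the median difference lay between -0.19 and -0.11. Only Loxl3 changed sign, with a range from -0.12 to 0.05 when 1 array was left out. For the 10 genes, which have 1 probe set each, the choice of probe set changed no difference.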
